A study of Mus musculus with 54 samples.

Results

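Naive CD4+ T cells that lack the adaptor LAT were compared with WT cells after 20 h of stimulation through the TCR and CD28. The members are the libraries that the deposited labels place at 20 h in the LAT experiment, 3 of Lat-/- and 3 of WT cells, 6 of the 54 samples of the series, and the other 12 libraries of that experiment (0 h and 4 h, 3 per genotype and time) are used as context. Both genotypes were sorted by flow cytometry, from pooled lymph nodes and spleens of 8- to 10-wk-old Latfl-dtr maT-Cre mice on a C57BL/6 background, as cells that had lost (Lat-/-) or kept (WT) the human diphtheria toxin receptor carried by the floxed allele. The WT cells therefore came from mice with the same floxed allele and the same Cre transgene, whose promoter is not given in the sources used here. Cells were stimulated with anti-CD3 bound to the plate at 3 µg/ml and anti-CD28 at 1 µg/ml, and 0 h cells were taken straight after purification. The methods speak of 3 biological replicates, but the sources do not say how many mice entered a pool. The p-values, standard errors (SE), and intervals measure the spread between samples, estimated in 1 fit over all 18 libraries of the experiment. They do not follow the spread of the 3 Lat-/- libraries at 20 h alone, and can understate it where these libraries vary more.

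LAT is a transmembrane adaptor that the kinase ZAP-70 phosphorylates once the TCR is engaged. Its phosphotyrosines hold PLC-γ1 and the adaptors GADS, GRAP, and GRB2, and through GADS the adaptor SLP-76, and so couple the receptor to calcium, Ras-MAP kinase, and NF-κB signals. In a naive T cell these signals end quiescence: immediate early transcription factors and IL-2 are made first, then nutrient transporters and ribosomes, and DNA replication and division follow.

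The 20 h libraries held between 19714339 and 27712553 counts of reads per gene, and at these totals 3 counts, taken as the lowest reliable count, are worth between 0.108 and 0.152 CPM, the unit of counts scaled to library size. Lat-/- libraries differed more among themselves than WT libraries: the chi-square per degree of freedom of the counts of 2 replicates was between 24.4 and 48.7 in Lat-/- and between 3.02 and 10.6 in WT cells, so that no 2 libraries were alike within sampling noise. Mitochondrial genes took between 1.94% and 2.93% of the counts in Lat-/- and between 0.973% and 1.07% in WT libraries. Reads of the Y chromosome were present in Lat-/- library 1 alone, where Ddx3y was at 21.59 CPM and Uty at 5.158 CPM, against at most 0.0813 CPM for Ddx3y in the other 17 libraries of the experiment, and Xist was at 48.09 CPM in that library and between 47.45 and 154.2 CPM elsewhere. Its part in the results was not tested, and it was left out in turn like every other library. T cell genes were present in every library at 20 h. Cd3e was at 245, 245, and 213 CPM in WT libraries 1, 2, and 3 and at 463, 471, and 465 CPM in Lat-/- libraries 1, 2, and 3, and Cd4 was at 700.3, 714, and 569.8 CPM and 1167, 1291, and 1126 CPM.

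The targeted gene followed the labels. Lat (ENSMUSG00000030742.7) lies on chromosome 7 of GRCm38 between 126363824 and 126369570, minus strand. It was at 97.3, 105, and 92.2 CPM in the WT libraries and at 11.7, 9.91, and 17.2 CPM in the Lat-/- libraries at 20 h, and the groups did not overlap. The log2 fold change of Lat-/- over WT was -2.93 (SE 0.16), with an edgeR adjusted p of 4.91e-69. Counts per gene do not show which exons the remaining reads came from. The gap was wider before stimulation, at a mean of 249 CPM in WT and 15.3 CPM in Lat-/- cells. Of the other 6 genes within 100 kb of Lat that averaged 10 or more counts, Spns1 (0.35, SE 0.17), Nfatc2ip (0.29, SE 0.17), and Rabep2 (-0.29, SE 0.19) were not called, and Sbk1 (1.43), Sh2b1 (1.23), and the noncoding Gm30928 (3.01) were higher in Lat-/- cells. Gm30928 was also called higher at 0 h (2.44) and at 4 h (2.98), whereas Sbk1 (-0.31) and Sh2b1 (-0.08) were not called at 0 h.

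A gene was called where its fold change was above 2 and its adjusted p was under 0.05, by the quasi-likelihood test of edgeR and the Benjamini-Hochberg method over all 27780 genes with at least 1 read. All fold changes below are log2 values of Lat-/- over WT cells at 20 h unless another contrast is named, and all levels are CPM of single libraries in the order 1, 2, and 3. At 20 h, 3364 genes (12.1% of those tested) were higher and 3424 (12.3%) lower in Lat-/- cells. Of these, 1702 were higher and 1761 lower by more than 4-fold, and 493 and 496 by more than 16-fold. Lists of genes are read against these shares and against a median log2 fold change of 0 over all genes tested. Among the 10160 genes that reached 50 counts on average over the 6 libraries, called well-measured below, 2148 were higher and 2369 lower, with a median of -0.03. In most lists, other than those of markers of other cells, most members are well-measured. For such lists these larger shares are the nearer comparison. The CPM of the 3 WT and the 3 Lat-/- libraries did not overlap for 6556 of the 6788 called genes. Those genes were called on these same libraries, and the share over all genes tested is not given, so that this count is no separate support. Protein-coding genes were more often lower (2969 of 15452) than higher (2459), whereas long intergenic noncoding RNAs were higher in 176 and lower in 51 of 1429 and antisense RNAs were higher in 211 and lower in 31 of 1456. The counting was not stated to use strand, so that antisense RNAs and the genes they overlap cannot be told apart here.

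**Figure D1:**
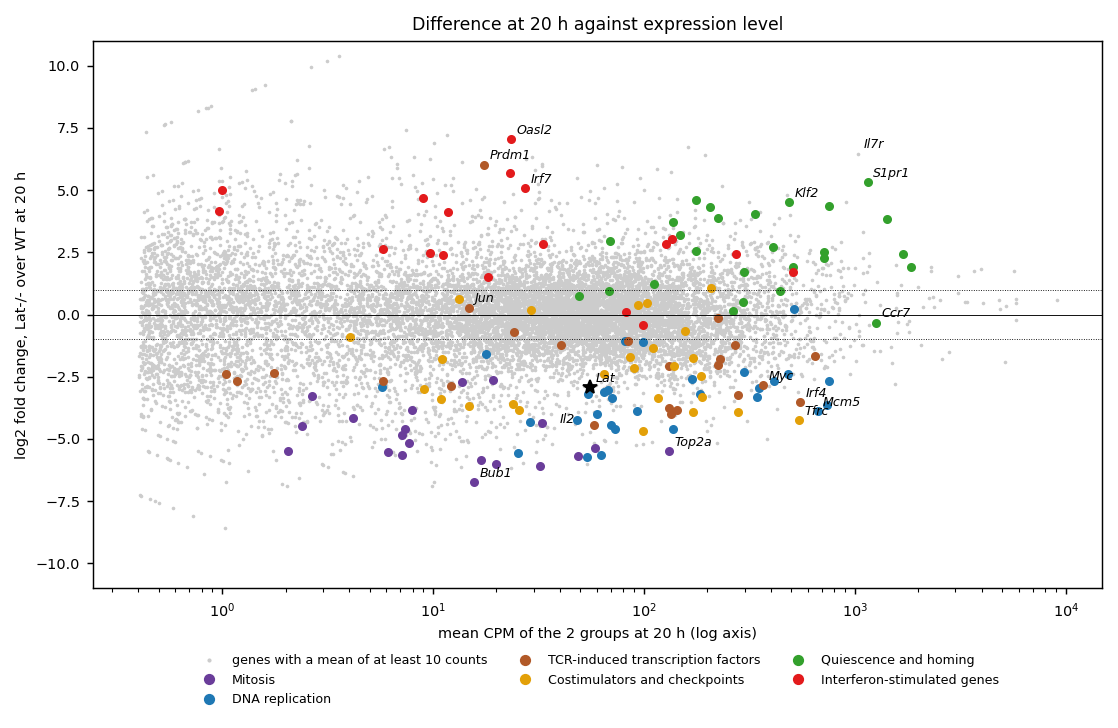
Log2 fold change of Lat-/- over WT cells at 20 h (y axis) against the mean CPM of both groups (x axis, log scale), 1 point per gene that averaged 10 or more counts, with 6 gene lists in color, Lat as a star, and dotted lines at a 2-fold change. Mitosis and DNA replication genes lie far below 0, with medians of -5.25 and -3.21, and quiescence and interferon-stimulated genes lie above it, with medians of 2.54 and 2.82.

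The genes of the TCR itself were measured in both groups at similar or higher levels in Lat-/- cells. Of 16 genes of the TCR complex and its proximal kinases, 3 were higher, 1 lower, and 12 not called, with a median of 0.60. Cd247, which encodes the CD3ζ chain, was at 190, 182, and 163 CPM in WT and 794, 876, and 971 CPM in Lat-/- libraries, a log2 fold change of 2.31 (SE 0.15). Txk, a kinase of the TEC family, lay the furthest above WT cells in this list, at 29.9, 26.9, and 23.5 CPM in WT and 182, 185, and 171 CPM in Lat-/- libraries (2.74, SE 0.16), and Cd3d was higher by 1.14 (SE 0.15). Zap70, the kinase that phosphorylates LAT, was the only one of the 16 called lower, at 498, 514, and 512 CPM in WT and 229, 218, and 292 CPM in Lat-/- libraries (-1.04, SE 0.15). That call was lost without Lat-/- library 1 (-0.95) or library 2 (-0.93). The kinase genes Lck (0.52, SE 0.14) and Fyn (0.02, SE 0.15, 95% interval -0.26 to 0.31) and the costimulatory receptor gene Cd28 (0.12, SE 0.17, 95% interval -0.21 to 0.46) did not pass a 2-fold change.

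Genes of the proteins that assemble around LAT split into those higher and those lower. Of 22 such genes, 10 were higher, 4 lower, and 8 not called, with a median of 0.70. The adaptor genes Grap2 (GADS), Themis, Fyb, and Skap1 were all higher, Grap2 at 211, 211, and 197 CPM in WT and 887, 880.2, and 644 CPM in Lat-/- libraries (1.96, SE 0.15). Rasgrp1, which activates Ras in response to diacylglycerol, was at 163, 163, and 144 CPM in WT and 635, 702, and 533 CPM in Lat-/- libraries (1.99, SE 0.15), and Plcg1, the phospholipase that makes diacylglycerol, was higher by 1.38 (SE 0.15). Prkcq (PKCθ, 1.55), Sos1 (1.21), and the ubiquitin ligase genes Cbl (1.09) and Cblb (1.08) were also higher, and Cblb was at 0.93 and no longer called without WT library 3. Lower were the genes of the surface receptors Cd5 and Cd6, which recruit regulators of TCR signals, and those of the phosphatases SHP-1 (Ptpn6, -1.74, SE 0.15) and STS-1 (Ubash3b, -1.21, SE 0.15). Cd5 was at 1090, 1225, and 1163 CPM in WT and 314, 286, and 466 CPM in Lat-/- libraries (-1.71, SE 0.15), and Cd6 at 998, 1130, and 1117 CPM in WT and 274, 253, and 384 CPM in Lat-/- libraries (-1.83, SE 0.15). Both had also been lower at 0 h, at -1.29 and -1.06. The adaptor genes Lcp2 (SLP-76, -0.45), Grb2 (0.64), and Nck1 (0.77) and the exchange factor gene Vav1 (0.32) were within a 2-fold change.

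Most transcription factor genes that TCR signals induce were lower in Lat-/- cells. Of 24, 19 were lower, 1 higher, and 4 not called, with a median of -2.21. Nr4a1, whose product Nur77 is a common reporter of TCR signal strength, was at 506, 519.9, and 484 CPM in WT and 41.1, 23.0, and 95.2 CPM in Lat-/- libraries, a log2 fold change of -3.25 (SE 0.16) and an edgeR adjusted p of 1.26e-91. Irf4, which scales with the strength of the TCR signal, was at 1018, 1028, and 1006 CPM in WT and 93.8, 27.2, and 142 CPM in Lat-/- libraries (-3.54, SE 0.16). In both genes Lat-/- library 3 was the nearest to WT cells and library 2 the farthest, without any overlap between the groups. Myc, the regulator of growth and metabolism in activated T cells, was at 599, 661, and 682 CPM in WT and 76.9, 81.6, and 114 CPM in Lat-/- libraries (-2.83, SE 0.16). Egr3 (-3.84), Nr4a3 (-3.75), Irf8 (-3.98), and Bhlhe40 (-4.43) lay further from WT cells. Without Lat-/- library 3 the values of Nr4a1, Bhlhe40, Fos, Fosb, and Fosl1 were -3.98, -5.24, -3.28, -3.15, and -4.63, and without library 2 that of Fosl1 was -1.75. The NF-κB subunit genes Nfkb1, Nfkb2, Rel, and Relb were all lower, at -1.66 (SE 0.15), -2.03 (SE 0.15), -1.80 (SE 0.15), and -1.05 (SE 0.15), though Relb was no longer past the 2-fold change without Lat-/- library 1 (-0.93) or library 2 (-0.88). The AP-1 genes differed from each other. Junb (-1.23), Fos (-2.66), Fosb (-2.35), Fosl1 (-2.40), and Batf (-1.24) were lower, Fosl2 (-0.71) and Batf3 (0.13, at most 0.2023 CPM in any library) were not called, and Jun was at 12.8, 12.7, and 14.5 CPM in WT and 15.0, 10.4, and 23.2 CPM in Lat-/- libraries (0.28, SE 0.16, 95% interval -0.03 to 0.59). The NFAT gene Nfatc1 was at 264, 250.5, and 190.5 CPM in WT and 215, 226, and 196 CPM in Lat-/- libraries (-0.15, SE 0.15, 95% interval -0.43 to 0.14).

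The exception among these factors was Prdm1, which encodes the repressor Blimp-1. It was at 0.599, 0.258, and 0.751 CPM in WT and 33.7, 41.3, and 28.1 CPM in Lat-/- libraries, a log2 fold change of 6.02 (SE 0.28) with an edgeR adjusted p of 3.85e-104. At 0 h its means were 8.84 CPM in WT and 16.7 CPM in Lat-/- cells (0.92, not called), so that every Lat-/- library at 20 h was above both means.

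**Figure D2:**
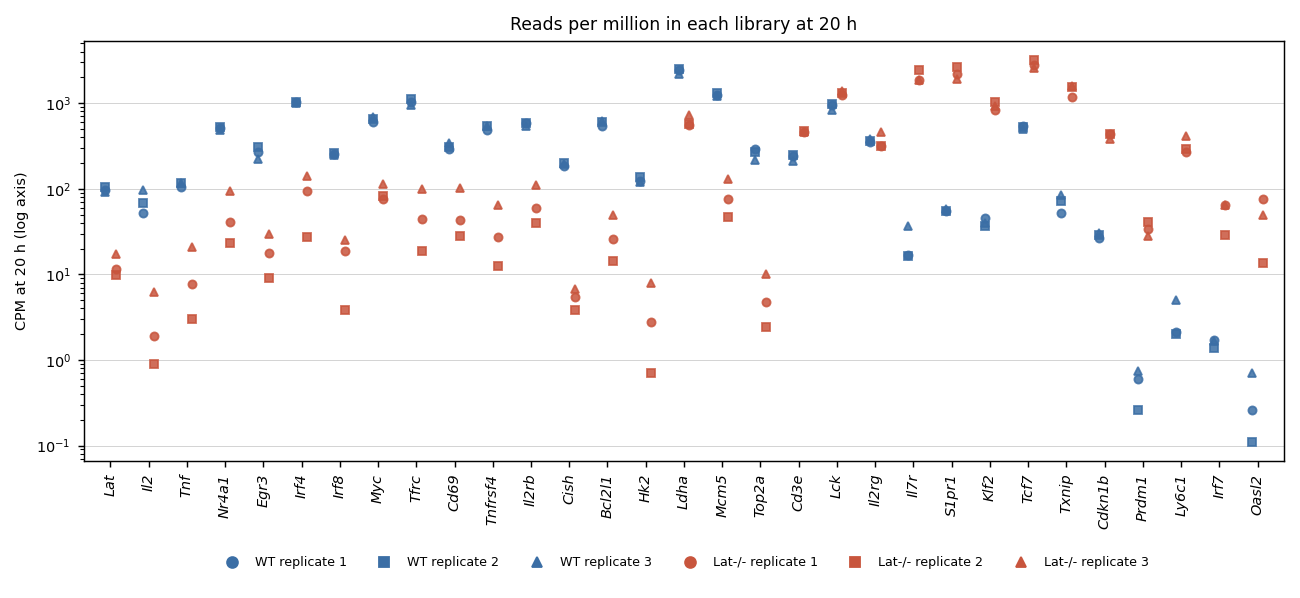
CPM (y axis, log scale) of 31 genes in each of the 6 libraries at 20 h, WT in blue and Lat-/- in red, with the marker shape giving the replicate. The groups are apart in most genes, as for Il7r with at most 36.54 CPM in WT and at least 1862 CPM in Lat-/- libraries, lie close in Lck and Il2rg, and Lat-/- library 3 (triangles) is the nearest to WT in Irf4, Tfrc, and Hk2.

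Cytokine genes were lower and higher in about equal number. Of 18, 7 were lower, 6 higher, and 5 not called, with a median of -0.56. Il2, the main growth factor of activated T cells, was at 51.5, 67.3, and 97.0 CPM in WT and 1.92, 0.891, and 6.27 CPM in Lat-/- libraries, a log2 fold change of -4.57 (SE 0.22) that was -5.72 without Lat-/- library 3. Tnf was at 104, 116, and 117 CPM in WT and 7.74, 3.04, and 20.8 CPM in Lat-/- libraries (-3.42, SE 0.17), and the lymphotoxin gene Lta at 167, 190.3, and 181 CPM in WT and 12.0, 12.4, and 17.9 CPM in Lat-/- libraries (-3.67, SE 0.17). These 3 genes were lower in every Lat-/- library than in any WT library. Ltb, whose product pairs with lymphotoxin α on the cell surface, went the other way, at 386, 392, and 359.7 CPM in WT and 1192, 1383, and 1555 CPM in Lat-/- libraries (1.86, SE 0.15). The other called cytokine genes were at low levels. Lif, of the IL-6 family, was at 20.0, 24.3, and 13.6 CPM in WT and 0.354, 0.185, and 0.799 CPM in Lat-/- libraries (-5.43), and Csf2, Il13, and Il3 were under 2 CPM in every library and lower in Lat-/- cells. Ifng was at 0.257, 0.295, and 0.177 CPM in WT and 2.63, 0.297, and 3.24 CPM in Lat-/- libraries (3.03, SE 0.48), with Lat-/- library 2 close to WT cells. Il4 was at 0.0856, 0.258, and 0.0884 CPM in WT and 0.860, 0.742, and 0.757 CPM in Lat-/- libraries (2.37, SE 0.67). Without Lat-/- library 3, Tnf was at -4.41 and Lif at -6.19, and without WT library 2, Il4 was at 3.10 and Il10 at 4.79. Il10 (3.66), Il17a, and Il17f were called higher. Il17a had no read in any WT library, and its Lat-/- mean was at least 4.99-fold above a floor of 3 counts per library. Reads of Il10, Il17a, and Il17f lay mostly in Lat-/- library 3, at 1.85, 1.64, and 1.472 CPM. The fold of the Il17a mean therefore rests mostly on that library. Without it Il10 (1.72) and Il17f (1.05) were no longer called.

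Chemokine and cytotoxic genes also went both ways, 5 of 11 lower and 5 higher, with a median of -1.89. The chemokine gene Ccl4 was at 54.8, 66.8, and 114 CPM in WT and 10.3, 3.04, and 13.7 CPM in Lat-/- libraries (-3.13, SE 0.18), and Xcl1 at 48.4, 56.1, and 171 CPM in WT and 25.4, 4.45, and 38.7 CPM in Lat-/- libraries (-2.01, SE 0.16). WT library 3 was the highest in both, and without it Xcl1 was at -1.20, whereas without Lat-/- library 3 it was at -2.64. Granzyme B (Gzmb) was lower, at 17.9, 16.9, and 28.5 CPM in WT and 0.101, 0, and 1.39 CPM in Lat-/- libraries (-5.39, SE 0.35, -8.76 without Lat-/- library 3 and -4.72 without library 2). The pore-forming protein of the same granules, perforin (Prf1), was higher, at 3.42, 2.99, and 5.04 CPM in WT and 55.4, 75.0, and 87.4 CPM in Lat-/- libraries (4.26, SE 0.18), with 65.4 and 128 CPM at 0 h. Ccl5 was at 1.16, 1.33, and 1.37 CPM in WT and 5.11, 3.79, and 21.5 CPM in Lat-/- libraries (2.98, SE 0.25, 1.78 without Lat-/- library 3). Ccl1, Cxcl10, and Gzma were higher at levels under 7 CPM, and Lat-/- library 2 lay within the range of WT cells in Ccl1.

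Cytokine receptor genes stood on both sides of WT cells. Of 20 cytokine receptor and feedback genes, 9 were higher, 5 lower, and 6 not called, with a median of 0.36. Il7r, the receptor chain for the survival cytokine IL-7, was at 16.8, 16.4, and 36.5 CPM in WT and 1862, 2441, and 1867 CPM in Lat-/- libraries. This log2 fold change of 6.47 (SE 0.18), with an edgeR adjusted p of 3.65e-262, was among the 10 largest of the well-measured genes, and the Lat-/- libraries were also above the means of 576 and 593 CPM of unstimulated WT and Lat-/- cells. Il6ra was at 42.5, 38.9, and 33.7 CPM in WT and 704, 783, and 528 CPM in Lat-/- libraries (4.13, SE 0.17) and Tgfbr2, a receptor chain for TGF-β, at 123, 119.5, and 115 CPM in WT and 976, 1054, and 738 CPM in Lat-/- libraries (2.95, SE 0.16). Ifngr1 (3.56), Il18r1 (4.69), and Il10ra (1.85) were higher as well. Il2rb, the β chain shared by the IL-2 and IL-15 receptors, was at 594, 588, and 538 CPM in WT and 59.6, 39.6, and 109 CPM in Lat-/- libraries (-3.04, SE 0.16), and the IL-12 receptor genes Il12rb1 (-3.71) and Il12rb2 (-2.20) were lower too. The gene of the common γ chain, which the IL-2 and IL-7 receptors share, was not called: Il2rg was at 356, 364, and 384 CPM in WT and 318, 318, and 460.2 CPM in Lat-/- libraries (-0.01, SE 0.15, 95% interval -0.30 to 0.28). The genes of the STAT5-induced inhibitors CIS and SOCS2 were the lowest of the list: Cish was at 186, 197, and 194 CPM in WT and 5.41, 3.79, and 6.73 CPM in Lat-/- libraries (-5.18, SE 0.19), and Socs2 at 16.4, 21.9, and 19.4 CPM in WT and 0.152, 0.148, and 0.631 CPM in Lat-/- libraries (-5.92, SE 0.37, -6.95 without Lat-/- library 3). Socs3 was higher, at 25.9, 27.8, and 24.5 CPM in WT and 92.2, 86.7, and 114 CPM in Lat-/- libraries (1.90, SE 0.16).

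Costimulatory and checkpoint receptors and their ligands were mostly lower. Of 27 genes, 19 were lower, 1 higher, and 7 not called, with a median of -2.13. The activation marker Cd69 was at 295, 311, and 338 CPM in WT and 42.7, 28.1, and 101 CPM in Lat-/- libraries (-2.46, SE 0.16). Tfrc, the transferrin receptor through which growing cells take up iron, was at 1019, 1115, and 962 CPM in WT and 44.5, 18.9, and 98.9 CPM in Lat-/- libraries (-4.25, SE 0.17). The TNF receptor family genes Tnfrsf4 (OX40) and Tnfrsf9 (4-1BB) were lower, at -3.92 (SE 0.17) and -3.30 (SE 0.16), and Tnfsf11 (RANKL) at -4.70 (SE 0.18). Lat-/- library 3 was the nearest to WT cells in all 5 genes, and without it the values were -3.15 for Cd69, -5.03 for Tfrc, -4.73 for Tnfrsf4, -4.15 for Tnfrsf9, and -6.10 for Tnfsf11. Of the inhibitory receptors, some were lower and others not called. Pdcd1 (PD-1) was at 196, 225, and 218 CPM in WT and 16.4, 6.49, and 38.8 CPM in Lat-/- libraries (-3.37, SE 0.17, -4.23 without library 3), and Ctla4 (-3.01), Lag3 (-3.61), Btla (-1.76), and Cd160 (-3.38) were called too. Tigit was at 4.71, 4.68, and 6.36 CPM in WT and 1.57, 1.52, and 5.30 CPM in Lat-/- libraries (-0.90, SE 0.28), with library 3 inside the range of WT cells and a called value of -1.76 without it, and Havcr2 (TIM-3) was at most 0.2528 CPM in any library (1.42). Cd27, a receptor that naive T cells already carry, was the 1 gene called higher, at 125, 129.6, and 149 CPM in WT and 252, 287, and 309.6 CPM in Lat-/- libraries (1.07, SE 0.15). Neither Tigit nor Havcr2 was called, and nor were Tnfrsf1b (-0.68) and the genes of CD40 ligand (Cd40lg, 0.48), Fas (0.19), Fas ligand (Fasl, 0.60), and PD-L1 (Cd274, 0.38). In Cd274 the Lat-/- libraries lay on both sides of WT cells, at 174, 34.0, and 112 CPM against 80.1, 83.8, and 81.3 CPM.

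Inhibitors that act inside the cell on TCR signals split evenly, 6 of 24 higher and 6 lower, with a median of -0.04. Both shares are near those of the well-measured genes, of which 2148 of 10160 were higher and 2369 lower. The lower ones included the ERK pathway inhibitors Dusp4 (-3.68, SE 0.18), Dusp5 (-2.22, SE 0.16), Dusp6 (-2.32, SE 0.16), and Spry1 (-3.65, SE 0.17). Dusp6 was at 97.1, 119, and 99.2 CPM in WT and 19.4, 9.95, and 33.9 CPM in Lat-/- libraries, and without Lat-/- library 3 Dusp4 and Spry1 were at -4.59 and -4.72. The higher ones included Dgka, the kinase that removes diacylglycerol, at 321, 321, and 257 CPM in WT and 1165, 1142, and 1012 CPM in Lat-/- libraries (1.89, SE 0.15), and the genes of the adaptors PAG (Pag1, 2.04) and SLAP2 (Sla2, 1.995), the ubiquitin ligase Itch (1.35), and the phosphatases Dusp10 (1.58) and Ptpn22 (1.03). Ptpn22 was at the limit of the call, with means of 93.0 ± 7.09 CPM in WT and 189.8 ± 7.19 CPM in Lat-/- cells (SD, n = 3), and was no longer called without WT library 1 (0.99). The NF-κB inhibitor genes Nfkbia (-0.32, SE 0.15) and Tnfaip3 (-0.05, SE 0.15) were not called.

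Cell cycle genes gave wide gaps. Of 15 genes of the G1 phase and S phase entry, 11 were lower and 1 higher, with a median of -2.38. Ccnd2, the D-type cyclin that T cells induce, was at 1629, 1664, and 1458 CPM in WT and 291, 302, and 322 CPM in Lat-/- libraries (-2.38, SE 0.15), and its partner Cdk4 at 827, 859, and 886 CPM in WT and 148, 129, and 211 CPM in Lat-/- libraries (-2.40, SE 0.15). The E-type cyclin genes Ccne1 and Ccne2 were lower, at -3.54 (SE 0.22) and -4.11 (SE 0.26), and the S phase transcription factor E2f1 at -4.38 (SE 0.22). The cell cycle inhibitors differed. Cdkn2d (p19INK4d) was the 1 gene called higher in the list (2.16, SE 0.16) and Cdkn1b (p27KIP1), of the quiescence list, was at 26.4, 28.8, and 30.8 CPM in WT and 439.6, 434, and 382 CPM in Lat-/- libraries (3.87, SE 0.17), whereas Cdkn1a (p21CIP1) was lower (-3.86, SE 0.22).

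Of 29 genes of DNA replication, 28 were lower and none was higher, with a median of -3.21. By comparison, 12.3% of all genes and 2369 of the 10160 well-measured genes were lower. The genes of the 6 subunits of the MCM helicase, which unwinds DNA at the fork, were all lower, from -2.37 for Mcm4 to -3.89 for Mcm5. Mcm5 was at 1238, 1299, and 1211 CPM in WT and 76.5, 47.0, and 129 CPM in Lat-/- libraries (-3.89, SE 0.17, edgeR adjusted p 4.51e-119). Cdc6, which loads the helicase, was at 131, 126, and 109 CPM in WT and 1.97, 0.519, and 4.96 CPM in Lat-/- libraries (-5.63, SE 0.23, -6.69 without Lat-/- library 3). Pola1, the catalytic subunit of DNA polymerase α, was at 136, 142, and 109 CPM in WT and 12.7, 10.7, and 14.9 CPM in Lat-/- libraries (-3.33, SE 0.18). In all 3 genes every Lat-/- library was below every WT library. Rrm2, which makes deoxynucleotides (-4.59), and the thymidine kinase gene Tk1 (-5.57) were further down. The exception was Rpa1, of the single-strand DNA binding complex, at 485, 492, and 451 CPM in WT and 523, 592, and 542 CPM in Lat-/- libraries (0.21, SE 0.15, 95% interval -0.07 to 0.50). Fen1 (-2.91) has near-identical copies in the genome, so that its value is uncertain.

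The promoters of replication genes are known for sites of the E2F factors. RefSeq promoter windows of GRCm38.p6, from 250 bases before to 50 bases after the start, were found for 13564 of the 27780 genes tested (48.8%), and were searched on both strands for the E2F motif in 4 forms, TTTCCCGC, TTTGGCGC, TTTGCCGC, and TTTCGCGC, which 2.26% of all 32851 windows hold. Only 23 of the 29 replication genes had a window, so that no share over the whole list is read. Of these 23, 11 held the motif, and the others, among them Mcm2, Pcna, Rrm2, and Tk1, did not. The 3 shown are those with the largest change among members with a match before the start. The stretches of Cdc6 (chromosome 11, 98907988 to 98908045, plus strand), Mcm5 (chromosome 8, 75109335 to 75109392, plus strand), and Pola1 (chromosome X, 93632261 to 93632318, minus strand) run 5′ to 3′ with the motif in capitals, and that of Mcm5 holds 2 overlapping matches.
Cdc6: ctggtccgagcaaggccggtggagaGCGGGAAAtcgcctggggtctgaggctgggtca
Mcm5: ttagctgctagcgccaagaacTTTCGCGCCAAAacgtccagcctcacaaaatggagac
Pola1: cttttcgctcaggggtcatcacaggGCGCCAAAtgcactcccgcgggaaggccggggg
The motif lay from 138 to 131 bases before the start in Cdc6 and in Pola1, and in Mcm5 the match nearest to the start lay from 149 to 142 bases before it. A match is a description of the sequence and says nothing of binding.

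All 20 mitosis genes were lower, with a median of -5.25 and a range from -6.74 to -2.63. Top2a, the topoisomerase that untangles sister chromosomes, was at 291, 272, and 214 CPM in WT and 4.75, 2.45, and 9.97 CPM in Lat-/- libraries, a log2 fold change of -5.50 (SE 0.20) and an edgeR adjusted p of 2.94e-171. Cdk1, the kinase that drives entry into mitosis, was at 115, 119, and 107 CPM in WT and 2.12, 2.08, and 4.12 CPM in Lat-/- libraries (-5.35, SE 0.22), and Kif11, the motor that separates the spindle poles, at 13.3, 13.6, and 9.10 CPM in WT and 0.253, 0.185, and 0.336 CPM in Lat-/- libraries (-5.52, SE 0.45). In each of these genes every Lat-/- library was below every WT library. The spindle checkpoint gene Bub1 was at 32.4, 32.6, and 28.5 CPM in WT and 0.202, 0.0371, and 0.631 CPM in Lat-/- libraries (-6.74, SE 0.36), and Ccna2, cyclin A2, at 104, 102, and 80.1 CPM in WT and 0.758, 0.223, and 4.58 CPM in Lat-/- libraries (-5.68, SE 0.24). These values moved with library 3, to -8.10 for Bub1, -7.69 for Ccna2, and -6.19 for Top2a without it, and without library 2 Bub1 was at -6.13 and Ccna2 at -5.09. In the sum over the 20 genes, the Lat-/- libraries held 23.61, 16.81, and 46.93 CPM and the WT libraries 926.5, 902.3, and 749.9 CPM.

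The CHR motif, TTTGAA on either strand (TTCAAA), is known from promoters of mitosis genes. Windows were found for 17 of the 20 mitosis genes, and 12 of them (70.6%) hold the motif, against 17.9% of all 32851 windows and 15.5% of those of the genes tested. Of all genes called lower that had a window, 16.4% hold it. Among the other lists searched, BCL2 family and caspase genes had the highest share, at 41.2%. The stretches shown are those with the largest change among members with a match before the start. They are of Kif11 (chromosome 19, 37376338 to 37376381, plus strand), Top2a (chromosome 11, 99024190 to 99024237, minus strand), and Cdk1 (chromosome 10, 69352913 to 69352952, minus strand) of GRCm38.p6.
Kif11: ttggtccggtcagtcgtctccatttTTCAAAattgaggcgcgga
Top2a: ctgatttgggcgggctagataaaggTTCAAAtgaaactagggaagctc
Cdk1: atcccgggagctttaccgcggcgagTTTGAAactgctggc
The capitals mark the motif, from 19 to 14 bases before the start in Kif11, from 23 to 18 in Top2a, and from 15 to 10 in Cdk1.

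Metabolic genes were lower across pathways, with some members outside the pattern. In glycolysis and the pentose phosphate pathway, 15 of 21 genes were lower and none was higher (median -1.65). Hk2, the inducible hexokinase, was at 124, 138, and 119.5 CPM in WT and 2.78, 0.705, and 7.91 CPM in Lat-/- libraries (-5.07, SE 0.21, -6.26 without Lat-/- library 3), whereas the constitutive Hk1 was at 233, 256, and 188 CPM in WT and 228, 195, and 203 CPM in Lat-/- libraries (-0.11, SE 0.15, 95% interval -0.40 to 0.18). Ldha, which turns pyruvate into lactate, was at 2417, 2525, and 2186 CPM in WT and 558, 564, and 725 CPM in Lat-/- libraries (-1.95, SE 0.15), and the lactate transporter gene Slc16a1 was lower, at -2.67 (SE 0.16). The glucose transporter genes Slc2a1 (-0.97, SE 0.15) and Slc2a3 (0.69, SE 0.16) were not called and stood on opposite sides of 0, with Slc2a1 next to the limit. Reads of Gapdh, Pgk1, and Pgam1, which have many processed copies, are uncertain. In amino acid, one-carbon, and polyamine metabolism, 17 of 22 genes were lower and 2 higher (median -2.19). The transporter gene Slc7a5 was at 369, 378, and 415 CPM in WT and 53.5, 59.3, and 99.2 CPM in Lat-/- libraries (-2.45, SE 0.16). Shmt2 (-2.92) and Mthfd2 (-2.06) of the mitochondrial one-carbon pathway and Odc1, the first enzyme of polyamine synthesis (-2.93), were lower too. The 2 higher genes are not enzymes or transporters: Ddit3 (CHOP, 1.39, SE 0.19) and Trib3 are known for the integrated stress response. Atf4, the central factor of that response, was lower (-1.16, SE 0.15), as was Asns (-5.34, SE 0.46, -5.99 without Lat-/- library 3), the asparagine synthetase gene that ATF4 is known to induce. Trib3 was at 3.29, 4.64, and 6.18 CPM in WT and 64.0, 85.5, and 78.3 CPM in Lat-/- libraries (4.01, SE 0.20), above its means of 14.4 and 17.4 CPM at 0 h.

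In sterol and fatty acid synthesis, 13 of 18 genes were lower and none was higher (median -1.54). Fasn, which makes palmitate, was at 523, 551, and 486 CPM in WT and 148, 139, and 146 CPM in Lat-/- libraries (-1.85, SE 0.15). The regulators of this pathway were not called, Srebf1 at 0.33 (SE 0.15) and Srebf2 at 0.35 (SE 0.15). Ribosome biogenesis genes were lower in 17 of 21 (median -1.95), and none was higher. Ncl, nucleolin, was at 4048, 4070, and 3937 CPM in WT and 1221, 1063, and 1168 CPM in Lat-/- libraries (-1.80, SE 0.15), and Nop58, a core protein of the particles that methylate ribosomal RNA, at 708, 700.2, and 752 CPM in WT and 128, 113, and 178 CPM in Lat-/- libraries (-2.37, SE 0.15). Of the heat shock and chaperone genes, 12 of 16 were lower and none was higher (median -1.79). Hsp90ab1 had the largest difference in mean CPM of all lower genes, at 7993, 8203, and 8169 CPM in WT and 1961, 1611, and 2872 CPM in Lat-/- libraries (-1.92, SE 0.15), and Hspd1, the mitochondrial chaperonin, was lower, at -3.10 (SE 0.16). Tubb5, a β-tubulin, and Eif5a, a translation factor, were next to them among the 5 lower genes with the largest difference, at -1.52 and -2.79. These values are shares of each library and do not show the amount of RNA per cell.

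Most genes of quiescence and of homing to lymphoid organs were above WT cells. Of 26, 20 were higher, none was lower, and 6 were not called, with a median of 2.54. Klf2, the factor that maintains quiescence and the homing receptors, was at 46.1, 36.7, and 40.1 CPM in WT and 842, 1029, and 925 CPM in Lat-/- libraries (4.51, SE 0.17, edgeR adjusted p 5.51e-152). Its target S1pr1, the receptor for exit from lymphoid organs, was at 54.6, 55.4, and 57.7 CPM in WT and 2183, 2654, and 1896 CPM in Lat-/- libraries (5.33, SE 0.17). In both genes the Lat-/- libraries were close to each other and also above the 0 h means, which were 741 CPM in WT and 765 CPM in Lat-/- cells for S1pr1. Over the whole list, Lat-/- cells at 20 h were higher than at 0 h in 5 of the 26 genes and lower in none (median 0.54). WT cells at 20 h were lower than at 0 h in 19 and higher in none (median -1.84). Klf2 was not called between Lat-/- cells at 20 h and at 0 h (0.79). The factors of the naive state Tcf7, Lef1, and Satb1 were higher by 2.45 (SE 0.15), 2.28 (SE 0.15), and 2.51 (SE 0.15). Tcf7 was at 546, 529, and 496 CPM in WT and 2817, 3208, and 2555 CPM in Lat-/- libraries. The FOXO-regulated genes Txnip, an inhibitor of glucose uptake, and Ccng2 were higher by 4.37 (SE 0.17) and 3.73 (SE 0.17), and Pik3ip1, an inhibitor of PI3K, by 4.59 (SE 0.17). The anti-proliferative genes Btg1 (1.91), Btg2 (2.72), and Tob1 (2.95) were higher together. Ccr7, the chemokine receptor for lymph node entry, was not called. It was at 1322, 1366, and 1513 CPM in WT and 926, 1111, and 1309 CPM in Lat-/- libraries (-0.33, SE 0.14, 95% interval -0.61 to -0.04).

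Among 17 adhesion and chemokine receptor genes, 4 were higher and 4 lower, with a median of -0.05. Both shares are near those of the well-measured genes, of which 2148 of 10160 were higher and 2369 lower. The integrin chain genes went apart: Itga4 was at 56.7, 54.9, and 38.9 CPM in WT and 534, 591, and 338 CPM in Lat-/- libraries (3.28, SE 0.16) and its partner Itgb7 was higher by 2.15 (SE 0.15), whereas Itgb1, which also pairs with Itga4, was lower, at -1.24 (SE 0.15). Cxcr4 was at 3.25, 3.61, and 4.24 CPM in WT and 73.8, 92.8, and 81.5 CPM in Lat-/- libraries (4.48, SE 0.18), and Ccr9, the gut-homing receptor, was higher by 2.61. Ccr4 was at 55.5, 59.2, and 70.6 CPM in WT and 1.97, 2.19, and 4.04 CPM in Lat-/- libraries (-4.49, SE 0.23), and Ccr8 (-2.75) and Ccr6 (-2.01, -2.68 without Lat-/- library 3) were lower too. Cxcr3 turned on 1 library: it was at -0.38, not called, and at -1.38, called lower, without Lat-/- library 3.

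Interferon-stimulated genes were higher in Lat-/- cells. Of 19, 16 were higher, none was lower, and 3 were not called, with a median of 2.82. By comparison, 12.1% of all genes and 2148 of the 10160 well-measured genes were higher. Irf7, the factor that amplifies the interferon response, was at 1.71, 1.36, and 1.68 CPM in WT and 65.2, 28.9, and 65.3 CPM in Lat-/- libraries, a log2 fold change of 5.07 (SE 0.20) with an edgeR adjusted p of 1.09e-136. Oasl2, an antiviral protein of the OAS family, was at 0.257, 0.111, and 0.707 CPM in WT and 76.8, 13.5, and 49.4 CPM in Lat-/- libraries (7.05, SE 0.28). In both genes Lat-/- library 2 was the nearest to WT cells, and Oasl2 was at 7.98 without WT library 3. The guanylate-binding protein genes showed this most: Gbp2 was at 204, 259, and 252 CPM in WT and 1252, 187, and 886 CPM in Lat-/- libraries (1.70, SE 0.15), so that library 2 lay below every WT library, and Gbp5, at 104, 118, and 117 CPM in WT and 126, 26.5, and 102 CPM in Lat-/- libraries, was not called (-0.41, SE 0.15). At 0 h the genotypes were alike in level, Irf7 with means of 110.2 CPM in WT and 105 CPM in Lat-/- cells, and no gene of the list was called. Against their own 0 h cells, Lat-/- cells at 20 h were higher in 2 and lower in 5 of the 19 (median -0.29). WT cells at 20 h were higher than at 0 h in 1 and lower in 16 (median -4.09). Of the MHC class I genes, for which no list was made, 2 were named by the size of their difference in mean CPM: B2m was at 1731, 1647, and 1648 CPM in WT and 5805, 5154, and 5964 CPM in Lat-/- libraries (1.75, SE 0.15) and H2-K1 at 1560, 1641, and 1539 CPM in WT and 4468, 4319, and 5032 CPM in Lat-/- libraries (1.54, SE 0.14). B2m, H2-K1, and Shisa5 (1.92, SE 0.15) were among the 5 higher genes with the largest difference in mean CPM.

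The interferon-stimulated response element is known from promoters of these genes. Its core, on either strand TTTC, any 2 bases, and TTTC, is held by 3.44% of all 32851 windows. Only 15 of the 19 genes had a window, so that no share over the whole list is read. Of these 15, 9 held the core, and the others, among them Irf7 and Oasl2, did not. Shown are the 3 with the largest change among members with a match before the start, Rsad2 (chromosome 12, 26456538 to 26456597, minus strand), Ifit3 (chromosome 19, 34583382 to 34583441, plus strand), and Stat2 (chromosome 10, 128270251 to 128270310, plus strand) of GRCm38.p6, with the core in capitals.
Rsad2: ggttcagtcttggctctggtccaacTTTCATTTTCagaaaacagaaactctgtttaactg
Ifit3: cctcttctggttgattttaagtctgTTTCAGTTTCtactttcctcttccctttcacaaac
Stat2: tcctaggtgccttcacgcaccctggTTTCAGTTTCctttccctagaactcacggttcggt
The core lay from 120 to 111 bases before the start in Rsad2, from 122 to 113 in Ifit3, and from 222 to 213 in Stat2. Rsad2 (viperin) was at 0, 0.0737, and 0.0884 CPM in WT and 2.68, 1.04, and 2.10 CPM in Lat-/- libraries (5.002, SE 0.53), Ifit3 at 0.556, 0.627, and 0.839 CPM in WT and 25.3, 7.98, and 18.5 CPM in Lat-/- libraries (4.67, SE 0.28), and Stat2 at 7.87, 8.92, and 7.95 CPM in WT and 84.4, 39.4, and 51.6 CPM in Lat-/- libraries (2.82, SE 0.18).

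Factors of the helper T cell lineages were 4 of 9 higher and 3 lower, with a median of -0.74. Bcl6, the factor of follicular helper cells, was at 7.02, 5.97, and 8.79 CPM in WT and 63.0, 45.2, and 52.5 CPM in Lat-/- libraries (2.88, SE 0.17), and Gata3, that of Th2 cells, at 13.1, 14.1, and 14.0 CPM in WT and 35.7, 39.0, and 32.3 CPM in Lat-/- libraries (1.38, SE 0.17). Rora (2.86) and Maf (2.38) were higher as well. Foxp3, which marks regulatory T cells, was at 30.9, 30.9, and 29.4 CPM in WT and 3.54, 2.30, and 6.01 CPM in Lat-/- libraries (-2.95, SE 0.20). It had been lower at 0 h too (-1.39), with means of 55.8 and 21.3 CPM, and in these bulk samples fewer cells of a type and less RNA per cell cannot be told apart. Tbx21, of Th1 cells, was just short of a call (-0.998, SE 0.32) and turned on 1 library, at -0.38 without Lat-/- library 2.

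In the genes of cell death, 7 of 20 BCL2 family and caspase genes were lower and 3 higher, with a median of -0.54. Bcl2l1 (BCL-XL), a survival factor that activated T cells induce, was at 543, 598, and 622 CPM in WT and 26.1, 14.2, and 49.8 CPM in Lat-/- libraries (-4.29, SE 0.17, edgeR adjusted p 1e-135). The survival factors Bcl2 (-0.59, SE 0.15) and Mcl1 (0.75, SE 0.15) were within a 2-fold change. Of the death-promoting BH3-only genes, Bmf (3.04, SE 0.25) and Bbc3 (PUMA, 2.09, SE 0.18) were higher and Pmaip1 (NOXA, -1.92, SE 0.29) and Bid (-1.94, SE 0.17) lower. Bcl2a1b and Bcl2a1d, near-identical copies between which reads can be split, were both lower. Among 10 p53 targets, 4 were lower and 1 higher (median -1.11). Trp53inp1 was at 131, 123, and 95.6 CPM in WT and 819.7, 776, and 638 CPM in Lat-/- libraries (2.68, SE 0.16), whereas Mdm2, the inhibitor of p53, was at 0.59, not called.

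**Figure D3:**
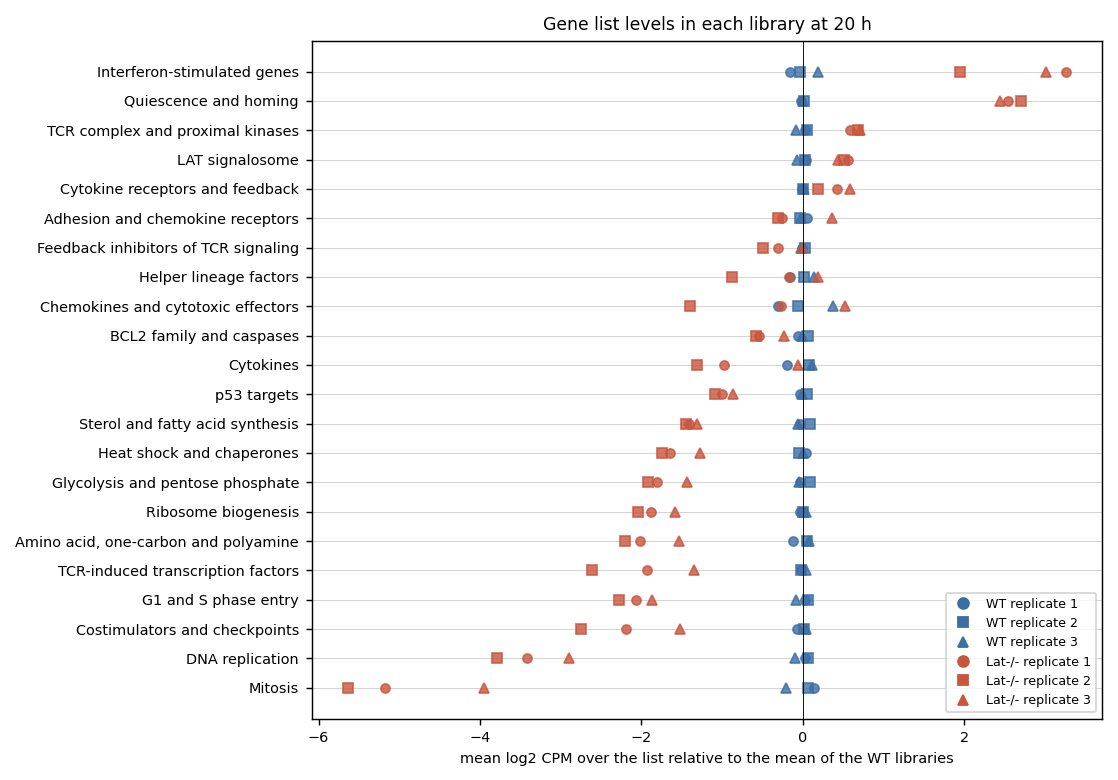
Mean log2 CPM over the members of 22 gene lists (x axis, relative to the mean of the WT libraries) in each library at 20 h, WT in blue and Lat-/- in red, 1 marker shape per replicate. WT libraries lie near 0, whereas Lat-/- libraries range from -5.64 (mitosis, replicate 2) to 3.268 (interferon-stimulated genes, replicate 1).

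The genes with the largest gaps were of several kinds, and 3 of them, Oasl2, Il7r, and Bub1, belong to the lists above. By rule, the 10 genes with the largest log2 fold change in each direction were taken among called, well-measured genes without overlap between the groups. The higher ones were Patl2, Kcnj16, Gm49492, Oasl2, Acoxl, Gm13091, Siah3, Ly6c1, Gm9889, and Il7r. Ly6c1, a surface antigen found on part of the CD4+ T cells, was at 2.14, 2.03, and 4.99 CPM in WT and 267, 288, and 410 CPM in Lat-/- libraries (6.73, SE 0.20), with 136 and 466 CPM at 0 h, where it was already called higher. Kcnj16, an inward rectifier potassium channel, was at 0, 0.147, and 0.0884 CPM in WT and 14.3, 14.8, and 15.4 CPM in Lat-/- libraries (7.41, SE 0.41). Patl2 had no read in any WT library and 5.87, 6.23, and 6.73 CPM in Lat-/- libraries, which makes it at least 50.7-fold higher against a floor of 3 counts per library. The lower ones were BC030867, Bub1, E2f8, Iqgap3, Kif14, 6430571L13Rik, Gls2, Clspn, Mybl2, and Rab34. Of these, Bub1, E2f8, Kif14, Clspn, and Mybl2 are known cell cycle genes. E2f8, an E2F repressor, was at 23.1, 22.7, and 14.4 CPM in WT and 0.0506, 0, and 0.505 CPM in Lat-/- libraries (-6.72), Clspn, of the replication checkpoint, at 50.9, 50.0, and 38.0 CPM in WT and 1.11, 0.111, and 0.799 CPM in Lat-/- libraries (-6.16, SE 0.30), and the glutaminase gene Gls2 at 8.13, 8.52, and 5.66 CPM in WT and 0.152, 0.0371, and 0.0841 CPM in Lat-/- libraries (-6.35, SE 0.57). Without Lat-/- library 3 E2f8 was at -9.54, without library 2 E2f8 was at -6.04 and Clspn at -5.57, and without WT library 2 Kcnj16 was at 8.24.

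Reads of mitochondrial mRNAs took a larger share of the Lat-/- libraries. Of 8 such genes, 5 were higher, none was lower, and mt-Atp6 had no read at 20 h, with a median of 1.69. The cytochrome c oxidase gene mt-Co1 had the largest difference in mean CPM of all higher genes, at 2778, 2538, and 2597 CPM in WT and 9393, 10520, and 6348 CPM in Lat-/- libraries (1.73, SE 0.14), and mt-Cytb was next (1.83, SE 0.15). The genes differed from each other: mt-Nd1 was at 2177, 2011, and 2165 CPM in WT and 2782, 2968, and 2072 CPM in Lat-/- libraries (0.30, SE 0.14). At 0 h mt-Co1 had means of 5944 CPM in WT and 6811 CPM in Lat-/- cells.

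The 3 Lat-/- libraries did not stand equally far from WT cells. Among the well-measured called genes, library 3 was the nearest of the 3 to the WT mean in 1335 of 2148 higher and 1895 of 2369 lower genes, library 1 in 504 and 328, and library 2 in 309 and 146. In levels averaged over a list and relative to the WT mean, mitosis genes were at -5.18, -5.64, and -3.951 in libraries 1, 2, and 3, and TCR-induced transcription factors at -1.93, -2.609, and -1.342. Costimulators and checkpoints were at -2.193, -2.747, and -1.52. The quiescence genes varied less, at 2.546, 2.703, and 2.449. Interferon-stimulated genes had another order, 3.268, 1.95, and 3.01, with library 2 the nearest to WT cells. In sterol and fatty acid synthesis library 3 was again the nearest to WT cells but by a small margin, at -1.408, -1.452, and -1.306. Without library 3, 3448 genes were higher and 3451 lower.

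The question of what was already different before stimulation was addressed with the 0 h libraries. At 0 h, 41 genes (0.148% of 27780) were higher and 226 (0.814%) lower in Lat-/- cells, and at 4 h 1532 (5.51%) were higher and 1730 (6.23%) lower. Of the 2148 well-measured genes higher at 20 h, 18 (0.838%) were also higher at 0 h and 818 (38.1%) at 4 h. Of the 2369 lower at 20 h, 139 (5.87%) were also lower at 0 h and 968 (40.9%) at 4 h. TCR-induced genes were frequent among the few lower genes of 0 h: 7 of the 24 transcription factors and 8 of the 27 costimulators and checkpoints were called there. Markers of other cells were frequent there too. At 0 h, 3 of 4 γδ T cell, 3 of 7 myeloid, 2 of 4 NK cell, and 1 of 7 B cell markers were lower. None of these markers was higher, no CD8 T cell marker was called, and their part in the 0 h differences was not tested. Nr4a1 had means of 126 CPM in WT and 25.8 CPM in Lat-/- cells at 0 h (-2.28), Egr3 32.0 and 1.27 CPM (-4.64), and Tnfrsf9 26.9 and 3.19 CPM (-3.06). No gene of quiescence and homing, of ribosome biogenesis, or of amino acid metabolism was called at 0 h.

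Whether the 20 h difference exceeded that at 0 h was tested as a difference of differences in the same fit. By this test 2813 genes (10.1%) were called toward higher and 2598 (9.35%) toward lower values in Lat-/- cells at 20 h than at 0 h. All 20 mitosis genes, 28 of 29 DNA replication genes, 18 of 21 ribosome biogenesis genes, 18 of 27 costimulators and checkpoints, and 11 of 24 TCR-induced transcription factors were called toward lower, and 20 of 26 quiescence and homing and 16 of 19 interferon-stimulated genes toward higher values. Several early genes were not called in this test: Nr4a1 (-0.96), Nr4a3 (-0.62), Egr3 (0.80), and Tnfrsf9 (-0.23), and also Cd5 (-0.41) and Cd6 (-0.77). For Irf4 (-1.45), Tnfrsf4 (-1.67), Myc (-2.44), and Tfrc (-3.78) the gap at 20 h was the wider one.

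**Figure D4:**
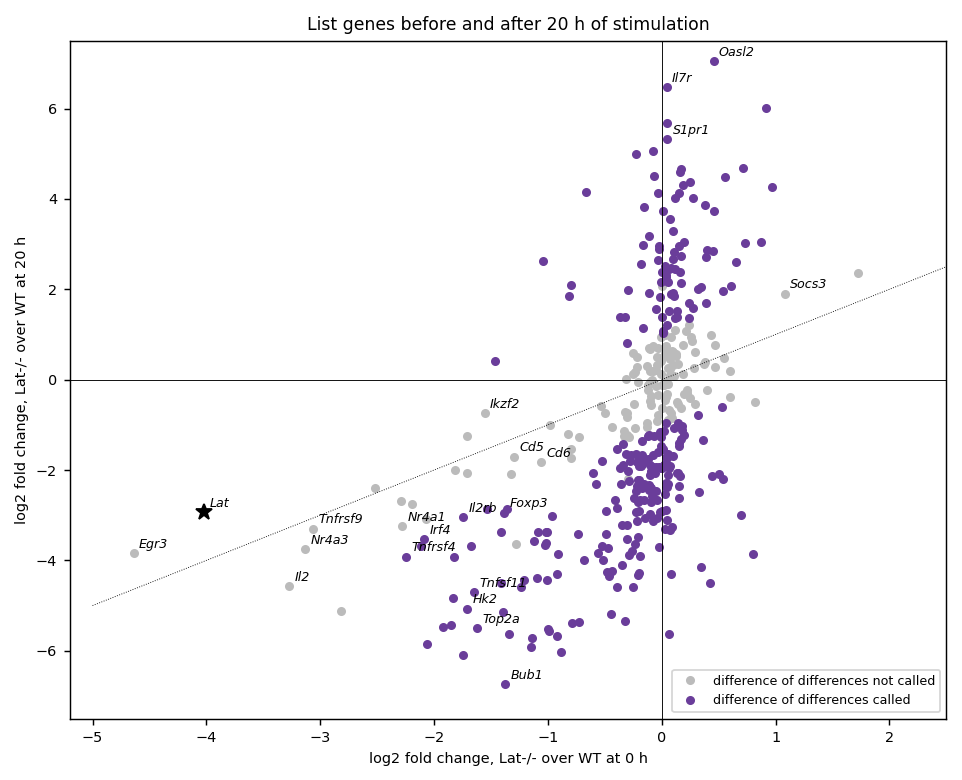
Log2 fold change of Lat-/- over WT cells at 0 h (x axis) and at 20 h (y axis) for list genes that averaged 10 or more counts at 20 h, in purple where the difference of differences was called, with Lat as a star and a dotted line of equal values. Both axes use WT and Lat-/- libraries of their own time only. Egr3, Nr4a1, and Tnfrsf9 lie near the line, and Il7r, S1pr1, and Top2a far from it.

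Lat-/- cells at 20 h also differed from Lat-/- cells at 0 h. This contrast called 595 genes higher (2.14%) and 575 lower (2.07%) of 27780. In Lat-/- cells 11 of the 24 TCR-induced transcription factors were higher and 4 lower at 20 h than at 0 h, and the median of the list was 0.96. Irf4 was higher by 4.25, Egr3 by 3.87, Nr4a3 by 2.77, and Il2 by 7.21, whereas Fos was lower, at -7.67, and Jun at -4.58. In WT cells the change from 0 h to 20 h was 5.70 for Irf4, 3.06 for Egr3, 3.39 for Nr4a3, and 8.50 for Il2. Fos and Jun were lower there too, at -5.42 and -4.395. Of the costimulators and checkpoints, 8 were higher and 2 lower in Lat-/- cells at 20 h than at 0 h. Of the DNA replication genes 7 were higher in these cells (Cdc6 by 3.07) and none was lower. Of the ribosome biogenesis genes none was called in either direction (median -0.23). Myc (-0.33) and Tfrc (0.60) were not called. Cells at 0 h had not been in culture, so that 20 h of stimulation and 20 h of culture cannot be told apart in this contrast.

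**Figure D5:**
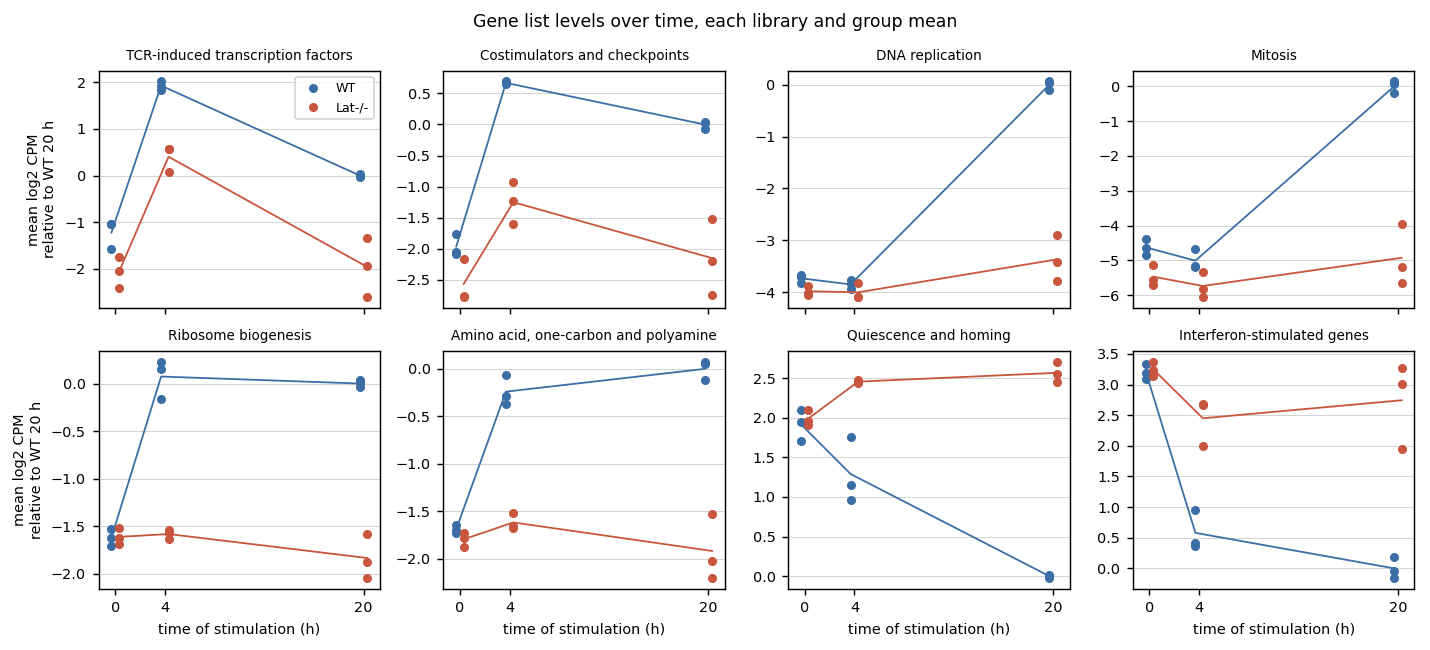
Mean log2 CPM over the members of 8 gene lists (y axis, relative to the WT 20 h mean) at 0, 4, and 20 h (x axis), 1 point per library and lines through the group means, WT in blue and Lat-/- in red. DNA replication in WT libraries lies between -3.932 and -3.769 at 4 h and between -0.094 and 0.062 at 20 h and in Lat-/- libraries of all times between -4.096 and -2.9, while TCR-induced transcription factors reach 0.572 in Lat-/- cells at 4 h and lie at -1.342 or lower at 20 h.

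Some genes left the range spanned by WT cells at 0 h and 20 h. By rule these were well-measured genes called against WT cells at 20 h and, in the same direction, against both WT and Lat-/- cells at 0 h, and there were 178 above and 66 below the range. Above it, with the 8 largest log2 fold changes, were Ddx3y, Patl2, Eif2s3y, Gm49492, Siah3, Gm9889, Il7r, and Ifit1bl1, of which Ddx3y and Eif2s3y are Y-linked and were read in Lat-/- library 1 alone. Without that library both are at 0. Ifit1bl1, of the interferon-induced IFIT family, was at 3.64, 3.65, and 6.41 CPM in WT and 469.9, 240.4, and 449 CPM in Lat-/- libraries at 20 h and at means of 109.6 and 166 CPM at 0 h. Below the range were 6430571L13Rik, Socs2, D630039A03Rik, Kcnk5, Cish, Gpr55, 1700066B19Rik, and Plk2. Cish had means of 43.7 CPM in WT and 32.1 CPM in Lat-/- cells at 0 h, so that the 5.41, 3.79, and 6.73 CPM of Lat-/- libraries at 20 h lay below both. The number below the range depended on 1 library: it was 142 without Lat-/- library 3, while the number above was 223.

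Markers of other cells were mostly low, with Klrd1, Cd8b1, and Trdc at the highest levels in Lat-/- cells, and their part in the results was not tested. The summed level of 7 B cell markers was between 1.707 and 1.808 CPM in Lat-/- and between 2.995 and 3.907 CPM in WT libraries, where 2 markers were higher (Cd79a and Ebf1, both under 1.1 CPM) and 1 lower, and the B cell factor gene Pax5 was at 0 in all 6 libraries. Of the 9 myeloid markers, 7 had a read and 1 (Itgam) was higher, with sums between 1.724 and 2.969 CPM in Lat-/- and between 0.4279 and 0.8394 CPM in WT libraries, and Cd14 was at 0 in all 6. The calls of Cd79a and Ebf1 were lost without WT library 2, and that of Ebf1 also without WT library 1 or 3 or Lat-/- library 3. The defining CD8 gene Cd8a was lower, at most 0.1682 CPM in Lat-/- and 2.032 CPM in WT libraries, while Cd8b1 was just short of a call (0.98) and past it without Lat-/- library 1 (1.13) or library 2 (1.05). The sum of both was between 19.52 and 27.54 CPM in Lat-/- and between 12.41 and 13.82 CPM in WT libraries. The sum of 4 NK cell markers was between 51.17 and 67.31 CPM in Lat-/- and between 0.3976 and 1.155 CPM in WT libraries, nearly all of it from Klrd1 (CD94, 6.33, SE 0.25), while the defining marker Ncr1 was at 0 in every Lat-/- library. Of 4 γδ T cell markers none was called (Trdc only without Lat-/- library 1, at 1.04), with sums between 8.141 and 10.72 CPM in Lat-/- and between 5.863 and 6.709 CPM in WT libraries.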

How the data were processed

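Counts of single-end, 50-base reads per gene were used as deposited. To make them, the authors sequenced poly-A RNA from 250 ng of total RNA as stranded libraries, aligned the reads with STAR to GRCm38, and counted them with featureCounts. The annotation release, the strand setting, and the handling of reads with several positions are not given in the sources used here. The table holds no columns of per-sample values that match no sample (0).

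The gene lists, the rule for named genes, and the comparison itself were chosen with earlier results of these data known. All 18 libraries of the LAT experiment entered 1 fit (R 4.3.3, edgeR 4.0.16, limma 3.58.1) with a mean for each genotype and time, TMM factors, and 27780 genes with at least 1 read. The quasi-likelihood test was used, genes were called at a fold change above 2 and a Benjamini-Hochberg adjusted p under 0.05, CPM were scaled by TMM, and the SE of a log2 fold change was its size divided by the square root of F. The level of a list was its mean log2 CPM with a prior count of 2.

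Named were Lat, members of 27 lists (451 genes), the 10 genes per direction with the largest log2 fold change, the 5 per direction with the largest difference in mean CPM, the 8 per direction outside the range of WT cells, and genes within 100 kb of Lat. The 95% intervals come from the same fit. Alternatives were RLE factors, library totals, filterByExpr, DESeq2 1.42.0, glmTreat, only the groups compared, a replicate block, adjusted p alone, and each 20 h library left out. In a simulation of the 20 h comparison over 26581 genes with 200 changed, the test called 63 of 67 genes changed 2.5-fold, 67 of 67 changed 4-fold, 66 of 66 changed 8-fold, and 19 of 26381 unchanged genes. Its counts had the spread per gene of the fit, equal in all groups, and its changed genes averaged 50 or more counts. In the data 6788 genes were called and Lat-/- libraries varied more than WT libraries, so that these rates need not hold there. The floor of 3 counts covers counting error only.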

Additional observations from a re-analysis of the deposited data

Results flagged for a closer look

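The difference between the genotypes at 20 h was not that at 0 h. In the edgeR test of the difference of differences, 2813 genes were called toward higher and 2598 toward lower values in Lat-/- cells at 20 h than at 0 h, which is the reason to list them here.

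Among the genes named above, 26 were called at 0 h and at 20 h and also differed between these times. Lat itself had a smaller gap at 20 h, with a log2 difference of differences of 1.09. Of the genes that TCR signals induce, Irf4 was at -1.45, Bhlhe40 at -3.21, Tnfrsf4 at -1.67, Tnfsf11 at -3.05, Pdcd1 at -1.96, Lag3 at -2.60, Cd160 at -2.36, and Lif at -3.58. The IL-2 receptor chain gene Il2rb was at -1.30, and the inhibitor genes Socs2, Dusp4, and Spry1 were at -4.77, -2.005, and -2.62. Of the cell cycle genes, E2f1 was at -3.29, Cdc6 at -4.29, Top2a at -3.88, Kif14 at -3.76, and Clspn at -3.79. Foxp3 was at -1.56, Bcl2a1b at -1.51, Hk2 at -3.36, and D630039A03Rik at -3.84. In all of these but Lat the gap at 20 h was the wider one, with Lat-/- cells lower at both times.

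Toward higher values, Kcnj16 was at 5.62, Acoxl at 5.54, and Ly6c1 at 4.95, each higher in Lat-/- cells at both times. Gzma changed sides, lower at 0 h (-1.04) and higher at 20 h (2.62), with a difference of differences of 3.67.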

How the results depend on the processing

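The number of genes higher at 20 h was between 3069 and 3513 and of genes lower between 3010 and 3598 under every alternative but the adjusted p alone, which gave 4883 and 4894. DESeq2 called 3083 genes higher and 3408 lower. With 1 library left out the counts were 3069 to 3448 higher and 3010 to 3451 lower, those of the difference of differences 2652 to 2924 higher and 2336 to 2765 lower, and those of genes outside the range of WT cells 162 to 223 above and 48 to 142 below it. The last number, 66 in full, was 142 without Lat-/- replicate 3. Scaling moved the median of the well-measured genes by -0.043 (RLE factors) or -0.059 (library totals). The share of calls that were higher, over all genes tested, went from 49.6% to 47.5% and 46.8%.

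With a replicate block, 3258 genes were higher and 3361 lower, and 2794 and 2620 by the difference of differences. The deviations of samples with the same replicate number correlated by 0.0965, 0.0192, and 0.169, those of other pairs by -0.153 to 0.0815, and Lat-/- replicate 2 correlated best with WT replicate 1, so that the numbers were not taken as pairs. With the block Il17f was no longer called (4.03 to 3.00) and Tbx21 (-1.21) and Tigit (-1.14) were.

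Of 257 named genes, 2 reversed: Ddx3y (0 to 10.99 with 1 library left out) and Eif2s3y (0 to 10.54) were at 0 without Lat-/- replicate 1. Of the others, 10 lost their call and 7 gained one under some alternative, and the cause was not tested. Ptpn22 was at 0.98 with RLE factors and with DESeq2 and at 0.97 with library totals, and Slc2a1 was called lower there (-1.01, -1.01, and -1.03). Il3 (adjusted p 0.0551), Il17f (0.116), and Ebf1 (0.0619) were not called by DESeq2, nor Gzma (0.0558) with filterByExpr. With only the groups compared, Zap70 and Relb were at -0.99 and Cd3e was called at 1.05. With a prior count of 0.25 the mean Lat-/- level was -1.51 in sterol and fatty acid synthesis, 0.90 in B cell, 0.09 in myeloid, -2.28 in CD8, and 2.60 in NK cell markers, and the median of the myeloid markers was 0.04 with filterByExpr and 0.06 with only the groups compared. At these depths a level under 3 counts was not detectable, and differences below the spread of the 3 Lat-/- libraries, which was above counting error, could not be shown.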
